A study of Mus musculus with 14 samples.

Results

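Dclk1, Trpm5, Pou2f3, Gnat3, Il25, Alox5, Ptgs1, Avil and Gfi1b are known as genes of tuft cells, the chemosensory cells of the intestinal epithelium. The 9 genes were taken by symbol, through their Ensembl IDs, from the 36536 genes of each count table, and all 9 were present. Tuft cells sense luminal metabolites and parasites through a taste-like cascade, in which a receptor acts on a G protein, a phospholipase releases calcium and the cation channel TRPM5 depolarises the cell. They answer with the cytokine IL-25 and with lipid mediators, and IL-25 drives innate lymphoid cells to make IL-13, which in turn raises the number of tuft and goblet cells. POU2F3 is the transcription factor that specifies them. Published studies have differed on whether tuft cells need ATOH1, the basic helix-loop-helix factor that goblet, Paneth and enteroendocrine cells require.

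The 14 libraries were RNA of 6 groups, in colon and in ileum. In each tissue, 3 libraries (GFP) came from live cells, negative for 7AAD and positive for GFP, sorted from crypts of Atoh1 GFP/GFP mice, in which both alleles encode a functional ATOH1-GFP protein. Another 2 libraries (KO) came from crypts of Atoh1 lox/lox;VilCreERT2 mice, and 2 (WT) from crypts of Atoh1 lox/WT;VilCreERT2 littermates, all aged 6 to 8 weeks. The animals called WT therefore carry 1 floxed allele and the same inducible recombinase, which the Villin promoter drives in the intestinal epithelium. The labels name no tamoxifen schedule, no strain and no pooling of animals. The labels do not say that libraries of a group came from separate animals, so each p-value measures the spread between these samples, which may be technical.

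Gene counts came to 8848660 to 10870416 per crypt library and 7478418 to 12991891 per sorted library. Levels are in CPM, counts scaled to 1 common library total with TMM factors, and 1 count stood for 0.0683 to 0.17 CPM. Atoh1 followed the labels: it had 295, 231 and 264 CPM in colon GFP cells, 5.2 and 5.9 CPM in colon KO crypts and 62.6 and 44.7 CPM in colon WT crypts. In ileum it had 195, 323 and 296 CPM in GFP cells, 1.02 and 0.526 CPM in KO crypts and 41 and 39.5 CPM in WT crypts. Atoh1 fell in KO crypts of both tissues, with a log2 fold change of −3.28 in colon (SE 0.22, edgeR adjusted p = 0.00515) and −5.66 in ileum (SE 0.29, edgeR adjusted p = 0.000744). Goblet markers, a list of 8, summed to 46629 to 133262 CPM in the sorted cells and to 10198 to 21779 CPM in WT crypts. Mitochondrial ribosomal RNA took 30.02 to 44.88% of gene counts in sorted cells and 0.14 to 0.22% in crypts, and its part in the comparisons with sorted cells was not tested. Unique reads assigned to no gene made up 52.29% in ileum GFP 1, against 24.87 to 31.92% in the other sorted libraries and 9.3 to 13.25% in crypts. Ileum GFP 1 also had the fewest gene counts, and it gave the highest Ptgs1 level of the sorted libraries, 9.37 CPM. The part of these differences in the values was not tested.

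Promoter windows, from 250 bases before to 50 bases after the annotated start, were held for 7 of the 9 genes (8 windows, RefSeq, build GRCm38.p6), and not for Pou2f3 and Il25. Those of Dclk1, Trpm5 and Gnat3 are printed because these genes span the range of what was found: CANNTG, the E-box that basic helix-loop-helix proteins such as ATOH1 bind, is in capitals. The windows are Dclk1 a, chr3:55242114-55242413 on the plus strand, Dclk1 b, chr3:55461478-55461777 on the plus strand, Trpm5, chr7:143094593-143094892 on the minus strand, and Gnat3, chr5:17962320-17962619 on the plus strand.
Dclk1 a: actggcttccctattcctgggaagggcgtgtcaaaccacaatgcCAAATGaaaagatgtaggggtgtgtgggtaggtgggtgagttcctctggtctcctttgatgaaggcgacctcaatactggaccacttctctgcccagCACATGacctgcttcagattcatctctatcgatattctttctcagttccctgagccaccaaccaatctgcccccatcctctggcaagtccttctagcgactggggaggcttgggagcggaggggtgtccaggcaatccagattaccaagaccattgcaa
Dclk1 b: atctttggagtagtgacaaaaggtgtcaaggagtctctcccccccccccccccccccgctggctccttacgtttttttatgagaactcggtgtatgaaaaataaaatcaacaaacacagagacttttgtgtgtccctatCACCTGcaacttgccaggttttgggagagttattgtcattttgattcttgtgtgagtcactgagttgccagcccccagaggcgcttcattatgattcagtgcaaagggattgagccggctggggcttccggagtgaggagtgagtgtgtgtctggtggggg
Trpm5: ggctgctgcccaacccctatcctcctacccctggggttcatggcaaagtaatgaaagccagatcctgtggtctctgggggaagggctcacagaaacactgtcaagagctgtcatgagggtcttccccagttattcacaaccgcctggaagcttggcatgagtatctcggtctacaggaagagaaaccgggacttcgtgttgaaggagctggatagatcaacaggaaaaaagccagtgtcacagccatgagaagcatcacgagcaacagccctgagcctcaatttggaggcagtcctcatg
Gnat3: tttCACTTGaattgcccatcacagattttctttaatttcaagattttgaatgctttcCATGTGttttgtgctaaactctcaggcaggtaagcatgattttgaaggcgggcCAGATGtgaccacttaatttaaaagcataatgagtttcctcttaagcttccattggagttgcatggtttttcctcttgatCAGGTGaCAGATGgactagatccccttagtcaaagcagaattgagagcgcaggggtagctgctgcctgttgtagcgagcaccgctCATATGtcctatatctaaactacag
CANNTG occurred 2 times in the first Dclk1 window, 1 time in the other, 6 times in that of Gnat3 and 0 times in that of Trpm5. It reads the same on both strands, and it was held by 5 of the 8 windows of these genes and by 72.3% of all 32851 windows. The narrower form CAGCTG, which overlaps it, was in 0 of 8 windows and in 16.3% of all. The octamer ATGCAAAT, a motif of POU factors, searched also as ATTTGCAT, was in 0 of 8 windows and in 1.74% of all.

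The WT libraries of each tissue, labelled alike, did not hold like levels of the tuft genes, and ileum WT 2 stood apart. All 9 genes were higher in WT 2 than in WT 1 in ileum and again in colon. Dclk1, a doublecortin-like kinase that marks tuft cells, had 84.3 CPM in WT 2 of ileum against 4.57 CPM in WT 1, a ratio of 18.5 (exact 95% counting interval 14.2 to 24.4). Alox5, the lipoxygenase that opens leukotriene synthesis, showed the widest ratio, 24.4 (14.6 to 44.1), and Ptgs1, the constitutive cyclooxygenase, the narrowest of those with a finite value, 3.91 (2.68 to 5.82). Avil, an actin-binding protein of the villin family, differed 15.8-fold, Trpm5 11.7-fold and Pou2f3 10.8-fold. In the rarely counted genes the ratio was 17.5 for Gnat3, the alpha subunit of gustducin (interval 4.45 to 150), and 8 for Gfi1b, a zinc-finger repressor (2.4 to 41.7), and Il25 had 7 counts against 0. These intervals cover counting error only. In bulk RNA, fewer cells of a type and less RNA per cell cannot be told apart.

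**Figure D1:**
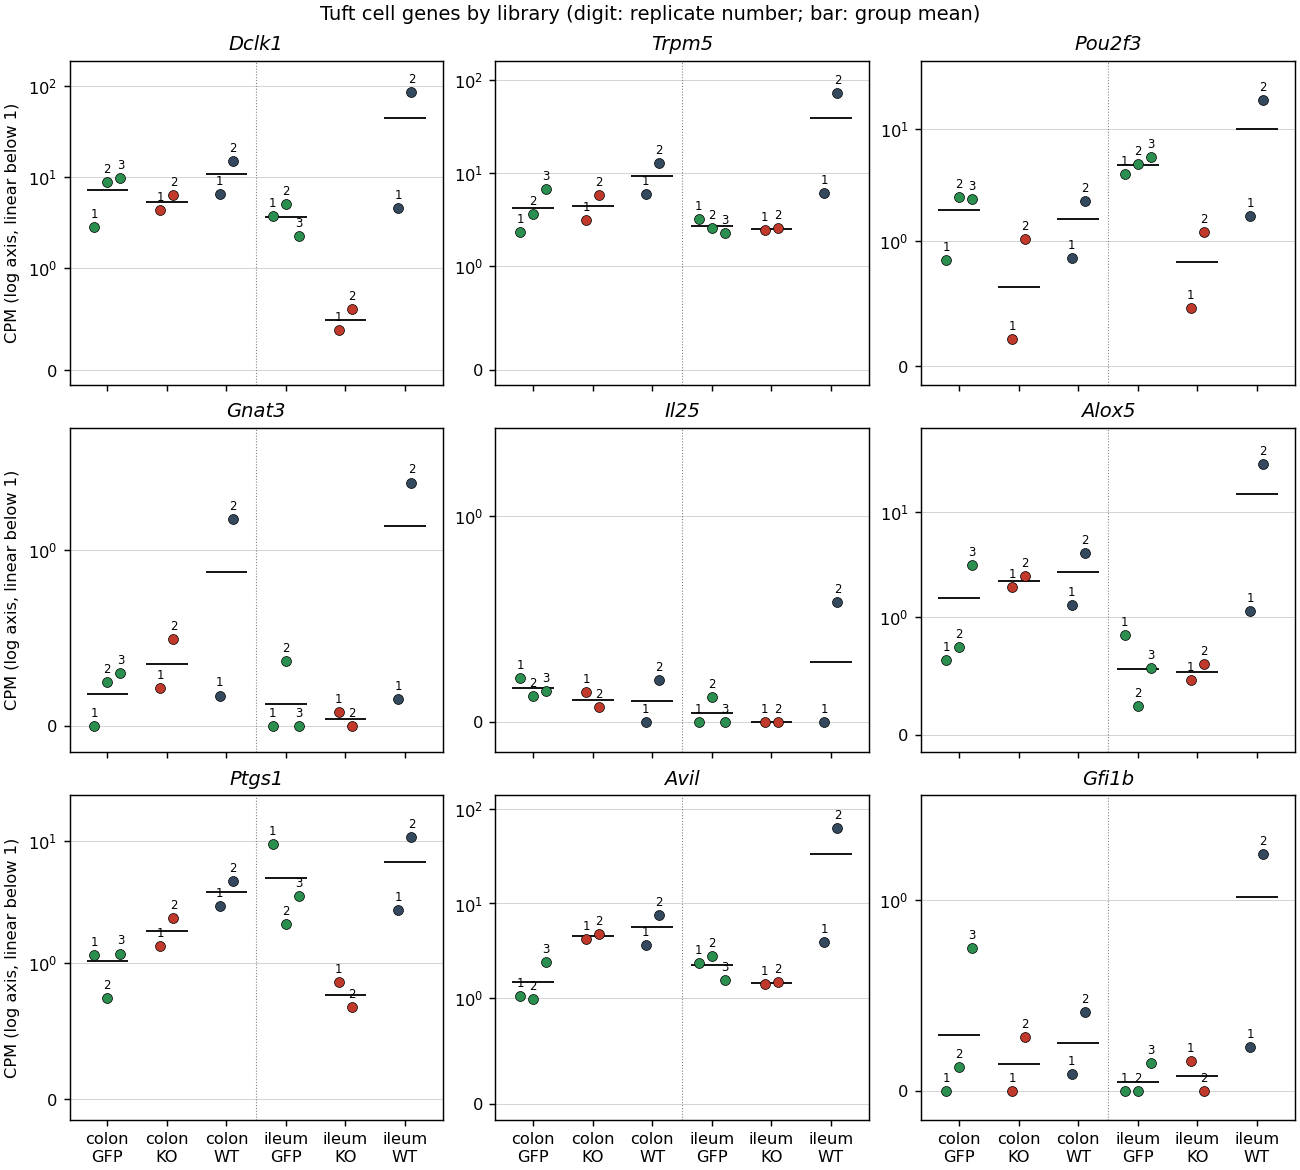
CPM of the 9 tuft genes in the 14 libraries, 1 panel per gene, on an axis that is logarithmic above 1 CPM and linear below; points are libraries with their replicate number, bars are group means, and the dotted line parts colon from ileum. Ileum WT 2 is the highest library for every gene, and the ileum KO libraries lie below both ileum WT libraries for 8 of the 9 (Il25 had 0 counts in ileum WT 1).

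In colon the same genes differed less between the WT libraries. The ratio of WT 2 to WT 1 was 2.25 for Dclk1 (interval 1.73 to 2.97), 2.16 for Trpm5 (1.63 to 2.9), 2.09 for Avil (1.45 to 3.05) and 1.6 for Ptgs1 (1.05 to 2.49). It was 3.11 for Alox5 (1.74 to 5.9), 2.61 for Pou2f3 (1.25 to 5.93) and 9.08 for Gnat3 (2.24 to 79.5, from 23 and 2 counts). A log2 ratio of 2 or more, with 0.5 CPM added to both values, was reached by 6 of the 9 genes in ileum and by 0 of 9 in colon, beside 0.721% and 0.215% of all 14415 genes tested. Summed over the 9 genes, the level in ileum was 281 CPM in WT 2 against 20.6 CPM in WT 1, and in colon 48.3 CPM in WT 2 against 21.5 CPM in WT 1. The KO libraries differed less: the sum was 6.25 and 7.14 CPM in ileum KO crypts and 15.6 and 23.7 CPM in colon KO crypts.

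Other marker lists moved between the same libraries, and their part in the tuft values was not tested. Ileum WT 2 held less of 4 lists of cells outside the epithelium than ileum WT 1: B-cell markers summed to 5.82 and 252 CPM, T-cell markers to 16 and 115 CPM, myeloid markers to 25.8 and 107 CPM and stromal markers to 24.3 and 77.5 CPM. Paneth markers summed to 33536 CPM in WT 2 against 9538 CPM in WT 1, goblet markers to 15376 and 11226 CPM and enteroendocrine markers to 167 and 180 CPM. Atoh1 itself was level at 39.5 and 41 CPM. Retnlb and Ang4, secreted antimicrobial proteins known to be induced by type 2 cytokines, had 749 and 5167 CPM in ileum WT 2 against 12 and 267 CPM in ileum WT 1. In colon Retnlb had 1166 CPM in WT 2 and 390 CPM in WT 1, and Ang4 403 and 37 CPM. Their list of 10 type 2 response genes of epithelium was mixed, with 6 higher in WT 2 in ileum (median log2 ratio 0.32) and 5 in colon (0.01), and Il13ra1, an IL-13 receptor subunit, had 127 CPM in WT 2 of ileum against 163 CPM in WT 1. The list of type 2 cytokines and their lymphoid cells (7 genes) summed to 0.748 CPM in WT 2 of ileum against 0.762 CPM in WT 1. The mast cell list summed to 107 CPM in WT 2 against 39.2 CPM in WT 1, of which Kit, also a gene of crypt secretory cells, gave 101 and 27.9 CPM, and 3 of its 8 genes were higher. Ptgs1 and Gfi1b are also platelet and megakaryocyte genes; markers of that lineage summed to 17.4 CPM in WT 2 of ileum against 29.2 CPM in WT 1, of which Gp1bb alone gave 16.9 and 27.2 CPM, while Pf4 and Gp9 had 0 counts in WT 2. In colon WT 2 also differed from WT 1, with goblet markers at 21779 and 10198 CPM, absorptive markers at 2859 and 7919 CPM, B-cell markers at 20.7 and 82.1 CPM and, unlike in ileum, more of the myeloid markers, at 89.3 and 58.9 CPM.

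**Figure D2:**
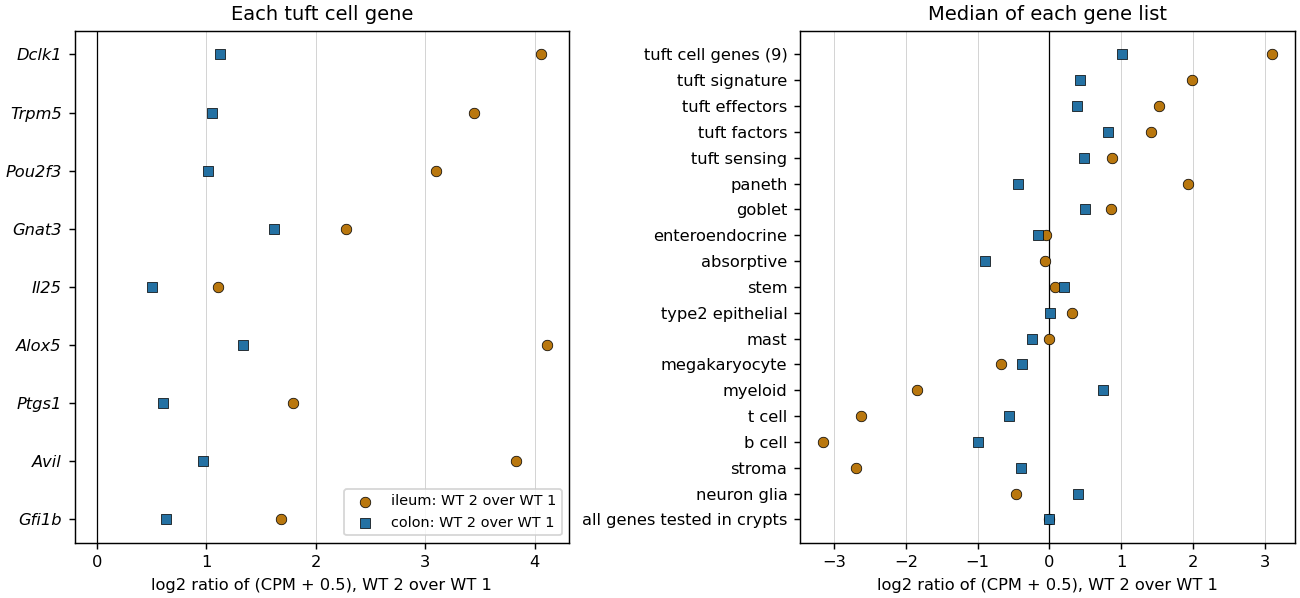
Log2 ratio of (CPM + 0.5) between the replicate WT libraries, WT 2 over WT 1, for each tuft gene (left) and as the median of each gene list (right); circles are ileum and squares colon. The median of the 9 genes is 3.10 in ileum and 1.01 in colon, and that of all genes tested is 0.00 and −0.01.

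In ileum crypts, the tuft genes were compared between Atoh1 KO and WT. Both KO libraries lay below both WT libraries for the 7 tuft genes that passed the filter on low counts (Il25 and Gfi1b did not pass), as did 21.9% of all genes tested. None of the 7 was called at an edgeR adjusted p under 0.05. All 7 had an unadjusted p under 0.05, as did 1929 of all 14415 genes. By edgeR 1.22% of all genes were called, 1.09% lower and 0.132% higher. DESeq2 called 6 of the 7 lower, beside 511 of 23114 genes called in either direction. The median log2 fold change of the 7 genes was −4.48, beside 0.01 for all genes tested. Other lists moved in the same comparison, and their part in the tuft values was not tested: the median was −4.59 for goblet genes (4 of 8 called lower), −4.16 for Paneth genes (2 of 8), −2.43 for enteroendocrine genes (6 of 10) and −1.52 for B-cell genes (0 of 6).

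Dclk1 had 0.391 and 0.601 CPM in ileum KO crypts, against 4.57 and 84.3 CPM in ileum WT crypts. It gave the largest estimate of the 7, a log2 fold change of −6.42 (SE 1.67, edgeR adjusted p = 0.185). Of the sensing genes, Trpm5 kept more of its level, with 2.42 and 2.56 CPM in KO crypts against 6.17 and 72.4 CPM in WT crypts (log2 fold change −3.94, SE 1.21, edgeR adjusted p = 0.245). Gnat3 had 1 count over the KO libraries against 34 over the WT libraries, a 35.3-fold lower level with a counting interval of 5.92 to 1433 (edgeR adjusted p = 0.35). Pou2f3, the tuft cell specifier, had 0.469 and 1.2 CPM in KO crypts and 1.68 and 18.1 CPM in WT crypts (log2 fold change −3.51, SE 1.27, edgeR adjusted p = 0.306). Here the upper KO value came close to the lower WT value.

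Among genes of lipid mediators, Alox5 had 0.469 and 0.601 CPM in ileum KO crypts and 1.14 and 27.9 CPM in ileum WT crypts (log2 fold change −4.71, SE 1.53, edgeR adjusted p = 0.265). Ptgs1 had 0.859 and 0.677 CPM in KO crypts and 2.74 and 10.7 CPM in WT crypts (log2 fold change −3.08, SE 0.72, edgeR adjusted p = 0.126). Ptgs1 thus had the smallest estimate of the 7, and the smallest SE. Avil had 1.41 and 1.5 CPM in KO crypts and 3.96 and 62.7 CPM in WT crypts (log2 fold change −4.48, SE 1.33, edgeR adjusted p = 0.232). Il25, the cytokine signal of tuft cells, had 0 counts in both KO libraries and 7 over the WT libraries, all in WT 2, at least 2.42-fold lower when 3 counts over the KO libraries are taken as the floor. Gfi1b had 2 counts in KO crypts and 25 in WT crypts, 13-fold lower (counting interval 3.23 to 113), with 22 of the 25 in WT 2.

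Which WT library stood in the comparison decided both the size of the difference and the calls. Without ileum WT 1, all 7 genes were called lower, with edgeR adjusted p of 0.000318 (Avil) to 0.0388 (Gnat3) and log2 fold changes of −3.76 (Ptgs1) to −7.35 (Dclk1). Without ileum WT 2, none of the 7 was called, and the log2 fold change was −3.13 for Dclk1 (edgeR adjusted p = 0.0831) and −0.94 (Pou2f3) to −1.78 (Ptgs1) for the others. Each of these fits leaves 1 WT library in ileum, which is assumed to vary like the other groups. With WT 2 of both tissues left out, 1 WT library was left in each tissue, and 6 of the genes were tested. The log2 fold change of Dclk1 was again −3.13, and the calls of members differed from those without ileum WT 2 alone. All 7 estimates stayed below 0 in each fit that left out 1 ileum library. The count over all genes moved as well, to 1403 of 14917 without ileum WT 1, against 176 of 14415 with all libraries and 180 of 15031 without ileum WT 2.

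**Figure D3:**
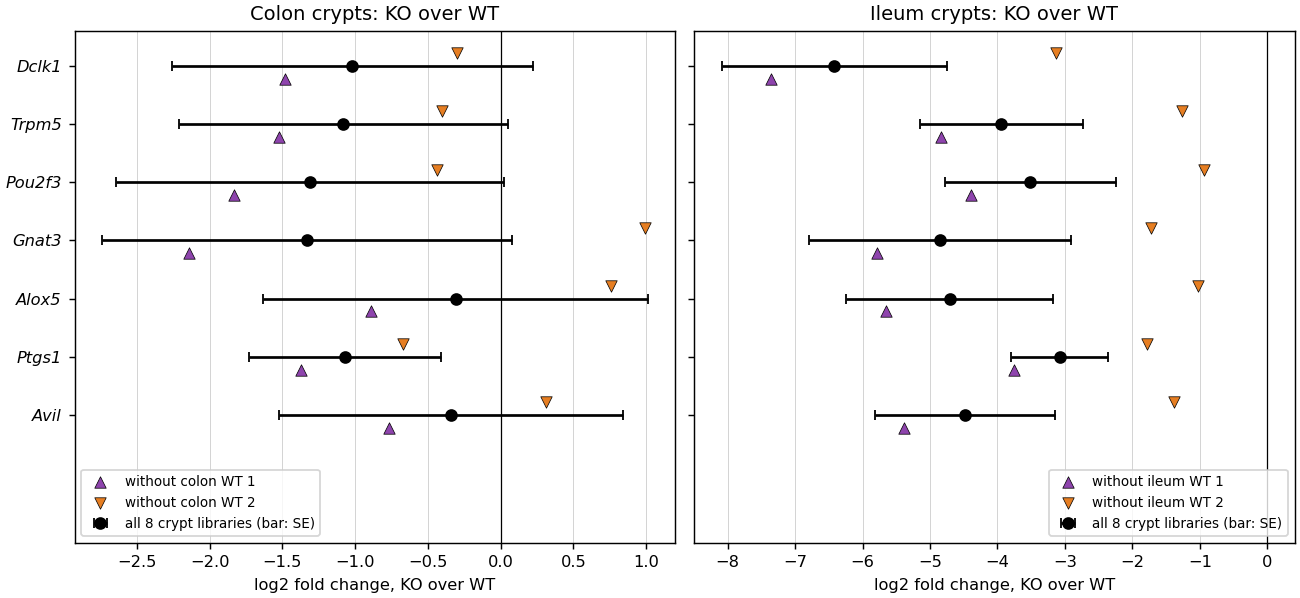
Log2 fold change of KO over WT crypts for the 7 tested tuft genes in colon (left) and ileum (right); circles with bars are the estimate and SE from all 8 crypt libraries, and triangles are the estimates without 1 WT library. In ileum every estimate lies below 0, from −0.94 to −7.35, and in colon those of Gnat3, Alox5 and Avil pass above 0 without colon WT 2.

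In colon the levels in KO crypts lay nearer to those in WT crypts, and no difference was called. Of the 7 tested genes, 0 were called by edgeR and 0 by DESeq2, and 0 had an unadjusted p under 0.05; of all genes 0.153% were called and 0.146% were called lower. The median log2 fold change of the 7 was −1.07, beside 0.01 for all genes. Both KO libraries lay below both WT libraries for Dclk1, Trpm5 and Ptgs1, as for 20.1% of all genes, and the groups overlapped for the other 4.

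Dclk1 had 4.33 and 6.39 CPM in colon KO crypts, against 6.58 and 14.8 CPM in colon WT crypts (log2 fold change −1.02, SE 1.24, edgeR adjusted p = 0.945). Trpm5 had 3.11 and 5.83 CPM in KO crypts and 5.89 and 12.7 CPM in WT crypts (log2 fold change −1.08, SE 1.13, edgeR adjusted p = 0.934). For both genes the upper KO library nearly reached WT 1. Ptgs1 had 1.37 and 2.32 CPM in KO crypts and 2.94 and 4.72 CPM in WT crypts (log2 fold change −1.07, SE 0.66, edgeR adjusted p = 0.85). Pou2f3 had 0.217 and 1.05 CPM in KO crypts and 0.866 and 2.26 CPM in WT crypts (log2 fold change −1.31, SE 1.33, edgeR adjusted p = 0.927), with KO 2 above WT 1.

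Alox5 and Avil differed least, by log2 fold changes of −0.31 (SE 1.32) and −0.34 (SE 1.18), with edgeR adjusted p of 0.992 and 0.985. Alox5 had 1.95 and 2.46 CPM in colon KO crypts, between the 1.3 and 4.03 CPM of the WT libraries, and Avil had 4.26 and 4.78 CPM in KO crypts, between the 3.64 and 7.59 CPM of the WT libraries. Gnat3 had 3 and 7 counts in KO crypts and 2 and 23 counts in WT crypts (log2 fold change −1.33, SE 1.41, edgeR adjusted p = 0.934). Il25 had 2 and 1 counts in KO crypts and 0 and 3 in WT crypts, and Gfi1b 0 and 4 counts in KO crypts and 1 and 6 in WT crypts, too few to show a difference at this depth. Without colon WT 2 the estimates of Gnat3 (0.99), Alox5 (0.76) and Avil (0.31) turned positive. With SE of 0.66 to 1.41 on the log2 scale, the missing calls do not show that levels were alike.

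The knockout effect was set against tissue in 1 model. The log2 difference, colon effect minus ileum effect, was positive for all 7 genes, with a median of 3.52 beside −0.02 for all genes, and 0 of the 7 were called; 0.00694% of all genes were. Dclk1 had the largest difference, 5.41 (SE 2.13, edgeR adjusted p = 1), and was the 1 gene of the 7 with an unadjusted p under 0.05 (0.045); DESeq2 called 0. Without ileum WT 1, edgeR called Avil (5.05, adjusted p = 0.00483), Alox5 (5.33, adjusted p = 0.0222) and Dclk1 (6.33, adjusted p = 0.0223), beside 335 of 14917 over all genes. Without ileum WT 2 the differences ran from −0.37 (Pou2f3) to 2.11 (Dclk1), and 0 were called. Atoh1 left in KO crypts differed too, at 5.2 and 5.9 CPM in colon and 1.02 and 0.526 CPM in ileum, and its part in the tuft values was not tested.

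Between colon WT and ileum WT crypts, the groups overlapped for all 7 tested genes, whereas 30.1% of all genes were lower in every colon library. By edgeR 0 of the 7 were called, beside 19.9% of all genes (9.71% lower and 10.2% higher), 0 had an unadjusted p under 0.05 and DESeq2 called 0. The median log2 fold change, colon over ileum, was −2.05, beside −0.01 for all genes. Without ileum WT 1, 6 genes were called lower in colon, with edgeR adjusted p of 0.000366 (Avil) to 0.0244 (Ptgs1), beside 3544 of 14917 over all genes in that fit. Without ileum WT 2, the estimates of 6 genes turned positive, among them Dclk1 (1.26) and Alox5 (1.27).

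ATOH1-positive cells were compared with whole crypts. Sort, genotype and RNA preparation differ along with the cells and cannot be told apart from them. By edgeR no tested tuft gene was called higher in GFP cells than in WT crypts of either tissue, and for no member did all GFP libraries lie above both WT libraries, as 32.5% of all genes did in colon and 30.9% in ileum. In ileum 4 of 7 tested genes were called lower, and the median log2 fold change was −3.58, beside −0.06 for all genes; of all genes 52.8% were called and 28.1% were called lower. Trpm5 had 3.24, 2.57 and 2.28 CPM in ileum GFP cells, against 6.17 and 72.4 CPM in ileum WT crypts (log2 fold change −3.87, SE 0.85, edgeR adjusted p = 0.00333). Avil had 2.38, 2.82 and 1.57 CPM in GFP cells and 3.96 and 62.7 CPM in WT crypts (log2 fold change −3.87, SE 0.86, edgeR adjusted p = 0.00337). Trpm5, Avil and Alox5 lay below both WT libraries in all 3 GFP libraries, as did 34% of all genes tested.

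Alox5 had 0.851, 0.245 and 0.571 CPM in ileum GFP cells and 1.14 and 27.9 CPM in ileum WT crypts (log2 fold change −4.74, SE 1.16, edgeR adjusted p = 0.00534). Dclk1 had 3.75, 5.02 and 2.28 CPM in GFP cells, which overlapped the 4.57 and 84.3 CPM of WT crypts (log2 fold change −3.58, SE 0.99, edgeR adjusted p = 0.0129). Pou2f3 stood out by its level, with 3.92, 4.9 and 5.57 CPM in GFP cells, between the 1.68 and 18.1 CPM of the WT libraries (log2 fold change −1.04, SE 0.78, edgeR adjusted p = 0.283). Ptgs1 had 9.37, 2.08 and 3.57 CPM in GFP cells and 2.74 and 10.7 CPM in WT crypts (log2 fold change −0.45, SE 0.60, edgeR adjusted p = 0.548). Gnat3 had 3 counts over the GFP libraries and 34 over the WT libraries, 9.48-fold lower (counting interval 2.98 to 48.2; edgeR adjusted p = 0.0662), and 32 of the 34 counts were in WT 2. Il25 had 1 count in GFP cells and 7 in WT crypts, and Gfi1b 1 and 25.

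These ileum calls rested on ileum WT 2. Without it, in a fit that leaves 1 WT library in ileum, these calls were lost. The log2 fold change of Dclk1 was then −0.31, of Trpm5 −1.21, of Avil −0.82, of Alox5 −1.09 and of Gnat3 −0.14, and that of Pou2f3 was 1.5. Without ileum WT 1, 7 of the 8 genes then tested were called lower, beside 5981 of 16345 called in either direction over all genes.

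In colon, 1 of 7 tested genes was called in GFP cells against WT crypts, Ptgs1, beside 45.9% of all genes (23.6% lower), and the median was −1.18 beside 0.01. Ptgs1 had 1.17, 0.747 and 1.2 CPM in colon GFP cells and 2.94 and 4.72 CPM in colon WT crypts (log2 fold change −1.88, SE 0.67, edgeR adjusted p = 0.033). The call was lost without any 1 of the 5 libraries (edgeR adjusted p of 0.051 to 0.178). Avil also lay below both WT libraries, with 1.06, 0.996 and 2.39 CPM in GFP cells and 3.64 and 7.59 CPM in WT crypts. It was not called (log2 fold change −1.96, SE 0.92, edgeR adjusted p = 0.105). Of all genes tested, 34.6% were lower in every colon GFP library than in both WT libraries.

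Levels in colon GFP cells of the other genes overlapped those of colon WT crypts. Dclk1 had 2.87, 8.84 and 9.71 CPM in GFP cells and 6.58 and 14.8 CPM in WT crypts (log2 fold change −0.61, edgeR adjusted p = 0.629). Trpm5 had 2.34, 3.61 and 6.72 CPM in GFP cells and 5.89 and 12.7 CPM in WT crypts (log2 fold change −1.18, edgeR adjusted p = 0.268). For both, colon GFP 3 was the highest sorted library and colon GFP 1 the lowest. The same order held for Alox5, with 0.638, 0.747 and 3.14 CPM in GFP cells and 1.3 and 4.03 CPM in WT crypts, whereas Pou2f3 had 0.85, 2.49 and 2.39 CPM in GFP cells and 0.866 and 2.26 CPM in WT crypts (edgeR adjusted p of 0.517 and 0.843). Summed over the 9 genes, the level was 9.14, 17.9 and 26.7 CPM in colon GFP cells.

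**Figure D4:**
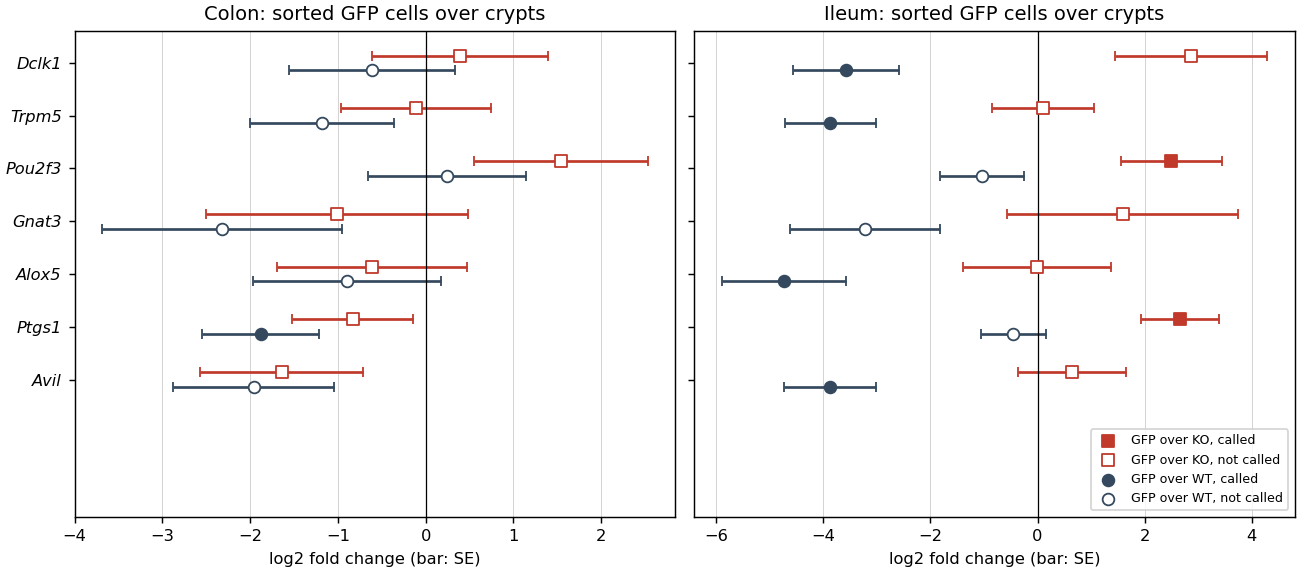
Log2 fold change with SE of sorted GFP cells over KO crypts (squares) and over WT crypts (circles) for the 7 tested tuft genes in colon (left) and ileum (right); filled symbols were called at an edgeR adjusted p under 0.05. The calls are Ptgs1 in colon and Dclk1, Trpm5, Alox5 and Avil in ileum against WT, and Pou2f3 and Ptgs1 in ileum against KO.

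Against KO crypts, GFP cells of ileum held more of Pou2f3 and Ptgs1. These 2 of the 7 genes were called higher, beside 55.5% of all genes called and 27.5% called higher, with a median of 1.59 beside 0.00. Pou2f3 had 3.92, 4.9 and 5.57 CPM in ileum GFP cells against 0.469 and 1.2 CPM in ileum KO crypts (log2 fold change 2.5, SE 0.95, edgeR adjusted p = 0.0401), and the call was lost without any 1 of these 5 libraries (edgeR adjusted p of 0.058 to 0.219). Ptgs1 had 9.37, 2.08 and 3.57 CPM in GFP cells against 0.859 and 0.677 CPM in KO crypts (log2 fold change 2.66, SE 0.72, edgeR adjusted p = 0.00633), and lost its call without ileum KO 2 (edgeR adjusted p = 0.0576). Dclk1 also lay above KO level in all 3 GFP libraries, as did 33.5% of all genes tested. So did Avil, by a small margin, with 2.38, 2.82 and 1.57 CPM in GFP cells against 1.41 and 1.5 CPM in KO crypts. Dclk1 was not called by edgeR (log2 fold change 2.87, SE 1.42, edgeR adjusted p = 0.112). DESeq2 called Dclk1 (adjusted p = 0.0156), beside 8713 of 28699 genes. Trpm5 (0.10), Alox5 (−0.01) and Avil (0.64) had log2 fold changes within 1 SE of 0.

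In colon 0 of 7 genes were called in GFP cells against KO crypts by edgeR, beside 48.8% of all genes (23.9% higher); 0 had an unadjusted p under 0.05, DESeq2 called 0, and the median was −0.61 beside 0.00. Pou2f3 gave the highest estimate, 1.54 (SE 0.99, edgeR adjusted p = 0.218), and Avil the lowest, −1.64 (SE 0.93, edgeR adjusted p = 0.168). Avil and Ptgs1 lay below both colon KO libraries in all 3 GFP libraries, as did 35.4% of all genes tested. Between the sorted cells, Ptgs1 was lower in colon, with 1.17, 0.747 and 1.2 CPM in colon GFP cells against 9.37, 2.08 and 3.57 CPM in ileum GFP cells (log2 fold change −2.24, SE 0.63, edgeR adjusted p = 0.0212), beside 22.7% of all genes called and 10.2% called lower. That call was lost without colon GFP 2, colon GFP 3 or ileum GFP 1 (edgeR adjusted p of 0.0618 to 0.109). Pou2f3 also did not overlap, with colon GFP cells lower, as for 16.2% of all genes tested. It was not called (log2 fold change −1.35, SE 0.79, edgeR adjusted p = 0.241). Comparisons against a shared set of GFP, KO or WT libraries are not independent of each other.

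Ranked by group mean, all 9 genes were highest in ileum WT crypts and 7 were lowest in ileum KO crypts. Of the 45 pairs of neighbours in these orders, the libraries of 39 overlapped. Dclk1 ran 44.5 ± 56.4 CPM in ileum WT, 10.7 ± 5.84 CPM in colon WT, 7.14 ± 3.72 CPM in colon GFP, 5.36 ± 1.46 CPM in colon KO, 3.68 ± 1.37 CPM in ileum GFP and 0.496 ± 0.149 CPM in ileum KO (SD, n = 2, or 3 for GFP), and of its neighbours ileum GFP and ileum KO alone did not overlap. Pou2f3 and Ptgs1 had ileum GFP second, at 4.79 ± 0.831 CPM for Pou2f3 and 5.01 ± 3.85 CPM for Ptgs1 (SD, n = 3). Pou2f3 was lowest in colon KO, at 0.635 ± 0.592 CPM (SD, n = 2). Gfi1b was lowest in ileum GFP cells.

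Per kilobase of exon, so that genes can be compared, Avil had the highest level of the 9 in ileum WT crypts, with a mean of 9.81 CPM per kb, followed by Trpm5 at 6.14, Alox5 at 3.54, Pou2f3 at 3.2 and Dclk1 at 2.91 CPM per kb. Gfi1b (0.562) and Il25 (0.273) were lowest on that scale. These means follow WT 2: in WT 1 of ileum Avil (1.17) and Trpm5 (0.964) again led, but Ptgs1 (0.706) came next, ahead of Pou2f3 (0.543), Dclk1 (0.299) and Alox5 (0.278 CPM per kb). Gfi1, the paralog of Gfi1b that acts in the secretory lineage, had 62, 34.7 and 36 CPM in colon GFP cells, 1.95 and 1.76 CPM in colon KO crypts and 9.61 and 18.6 CPM in colon WT crypts. In ileum Gfi1 had 47, 102 and 77.5 CPM in GFP cells, 1.48 and 1.13 CPM in KO crypts and 11.8 and 12.2 CPM in WT crypts. Gfi1 was highest in GFP cells and lowest in KO crypts of both tissues, whereas Gfi1b had at most 22 counts in a library.

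Another 43 genes known from tuft cells were described in 4 lists: sensing, effectors, factors and a signature of cytoplasmic signalling and surface genes. Of these 34 passed the filter. In KO against WT crypts 0 were called in colon (0 at an unadjusted p under 0.05, 0 by DESeq2). In ileum 0 were called, and 20 had an unadjusted p under 0.05, beside 1929 of all 14415 genes. DESeq2, which tested all 43, called 18 lower in ileum, beside 511 of 23114 genes called in either direction. Their median log2 fold change was −0.55 in colon and −2.03 in ileum, and 26 and 29 of 34 estimates were below 0. Without ileum WT 1, 27 of the 40 genes then tested were called lower in ileum KO crypts, beside 1403 of 14917 over all genes, and without ileum WT 2, 0 of 34 were. The 6 tested sensing genes had a median of −0.23 in ileum KO crypts, with 4 estimates below 0 and 2 above. Of the 6, 2 had an unadjusted p under 0.05, and Itpr3 and Plcg2 are also expressed beyond tuft cells. Within that list Rgs13, a regulator of G-protein signalling, had 0.312 and 0.376 CPM in ileum KO crypts and 2.59 and 41 CPM in ileum WT crypts. Plcb2, the phospholipase of the taste cascade, had 0.781 and 1.28 CPM in KO crypts and 2.74 and 16.6 CPM in WT crypts. Tas1r3, a taste receptor subunit, did not follow them, with 2.66 and 2.71 CPM in KO crypts and 1.6 and 3.07 CPM in WT crypts. Nor did Itpr2, with 27.8 and 27.7 CPM in KO crypts and 27.2 and 36.1 CPM in WT crypts.

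Of the effectors, Alox5ap, the partner of 5-lipoxygenase, had 0.547 and 1.05 CPM in ileum KO crypts and 1.83 and 21.9 CPM in ileum WT crypts (log2 fold change −3.84, SE 1.23, edgeR adjusted p = 0.253). Chat, which makes acetylcholine, had 0 and 0.0752 CPM in KO crypts and 0.229 and 3.82 CPM in WT crypts. Pla2g4a, the phospholipase that frees arachidonic acid in many cell types, did not follow them, with 33.9 and 34.2 CPM in KO crypts and 27.7 and 42.2 CPM in WT crypts. Between WT libraries 39 of the 43 genes were higher in WT 2 in ileum and 35 in colon, beside 50.2% and 48.4% of all genes.

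In sorted ileum cells against ileum WT crypts, 23 of the 34 other tuft genes were called lower and 3 higher, beside 28.1% lower and 24.6% higher of all genes. The median of the 34 was −2.77. The signature list led, with 16 of 17 genes lower and Cd24a, a surface glycoprotein shared with Paneth and other crypt cells, higher (log2 fold change 1.28, SE 0.40, edgeR adjusted p = 0.0156). Among the 16 was Espn, with 1.19, 2.57 and 1.86 CPM in ileum GFP cells and 95.4 and 64.1 CPM in ileum WT crypts. Espn had 92.6 and 92.6 CPM in ileum KO crypts, where 16 of the 17 estimates against WT were below 0 and 1 above. The part of cells other than tuft cells in these lower levels was not tested. Fewer of the other tuft genes were called lower, and more higher, without ileum WT 2, a fit that leaves 1 WT library in ileum. Ptprc, the pan-leukocyte phosphatase CD45, fell (log2 fold change −4.94, SE 0.47, edgeR adjusted p = 3.29e-06), beside B-cell markers that summed to 1.71 to 2.72 CPM in ileum GFP cells and 5.82 and 252 CPM in ileum WT crypts. In colon GFP cells 10 of the 34 were called lower and 5 higher than in colon WT crypts (median −1.16), beside 23.6% lower and 22.3% higher of all genes.

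Pou2af3, a coactivator of POU2F3, was among the genes that rose. It had 6.06, 4.23 and 4.78 CPM in colon GFP cells, 0.506 and 1.12 CPM in colon KO crypts and 0.779 and 2.05 CPM in colon WT crypts (a log2 fold change of 1.79 over WT, with SE 0.59 and edgeR adjusted p = 0.0231). In ileum Pou2af3 had 15.2, 15.1 and 14.6 CPM in GFP cells, 1.56 and 2.71 CPM in KO crypts and 2.59 and 11.6 CPM in WT crypts (a log2 fold change of 2.80 over KO, with SE 0.57 and edgeR adjusted p = 0.001, and of 1.07 over WT, with edgeR adjusted p = 0.0929). Pou2af2, the related coactivator, had 2.38, 1.96 and 1.86 CPM in ileum GFP cells, 0.937 and 0.601 CPM in ileum KO crypts and 0.533 and 10.6 CPM in ileum WT crypts. Tas1r3, a taste receptor subunit, had 10, 7.34 and 10.1 CPM in ileum GFP cells and 1.6 and 3.07 CPM in ileum WT crypts (log2 fold change 1.97, SE 0.38, edgeR adjusted p = 0.000663). Secretory lists moved differently over the same contrast: 7 of 8 goblet genes were called higher (median 2.82) and 9 of 10 enteroendocrine genes lower (median −2.54), beside 24.6% of all genes called higher and 28.1% lower. Of the 8 Paneth genes 1 was called higher and 0 lower (median 1.07).

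**Figure D5:**
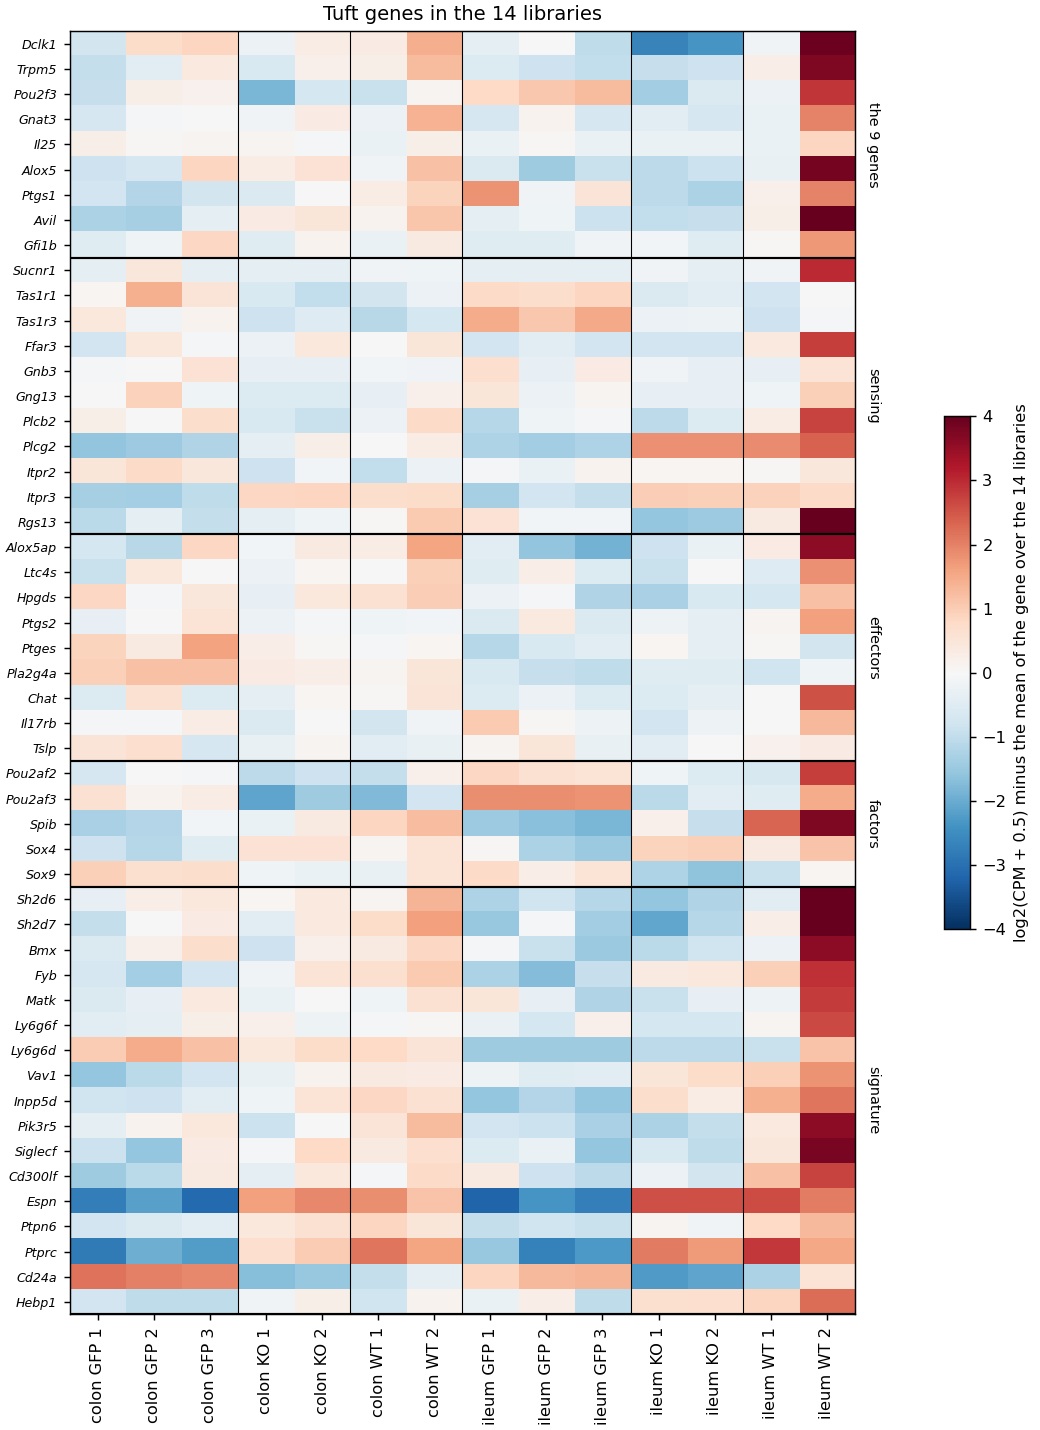
Log2(CPM + 0.5) of the 9 tuft genes and of 42 other genes known from tuft cells in the 14 libraries, each gene centred on its mean over the libraries (red above, blue below, limits at 4). The column of ileum WT 2 is red for the 9 genes and for most of the other lists, and Pou2af3, Tas1r3 and Cd24a are higher in GFP columns.

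The genes whose pattern over the 14 libraries was most like the mean of the 7 tested tuft genes were ranked by the root-mean-square difference of centred log2(CPM + 0.5), among 11935 genes with a mean of at least 1 CPM. Matk (0.395), Rgs13 (0.468), Bmx (0.474), Pik3r5 (0.494) and Adcy5 (0.52) were nearest, followed by Nebl, Capn13, Map1a, Cd300lf and Sh2d6 at up to 0.581, against a median of 1.16 over all candidates. Of these 10 genes 6 are in the tuft lists, of which 34 genes passed the filter on low counts. The lists were chosen with earlier results of these data known, so this count is no separate support for them. Capn13 was the most abundant of them, with 18.2 and 14.4 CPM in ileum KO crypts, against 23.4 and 279 CPM in ileum WT crypts. Among the 9 genes themselves Trpm5 was nearest to that mean (0.361) and Pou2f3 farthest (0.853), with Il25 at 0.835 and Ptgs1 at 0.723. The libraries share depth and scaling, and the 1 library with the highest levels weighs in each of these distances.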

How the data were processed

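RNA was measured in 14 libraries. The submitters' processing notes name TopHat 1.4.1, HTSeq and the build mm9. Not given in the sources used here were the strand setting, HTSeq version and annotation, so reads of antisense partners cannot be separated. The authors deposited raw counts per Ensembl gene. Symbols and exon lengths came from GENCODE M21, by ID (31004 of 36536 genes). The test was the robust quasi-likelihood F-test of edgeR 4.0.16 under R 4.3.3 (filterByExpr, TMM scaling, Benjamini-Hochberg adjustment over all genes, called under 0.05). KO and WT were fitted on 8 crypt libraries (14415 genes) and comparisons with GFP on all 14 (15274 genes). The alternatives, with DESeq2 1.42.0 among them, were other scalings, no filter on low counts, other sets of libraries, the replicate number as a block and leaving out libraries; the test was also run on simulated data. The genes named were the 9, Atoh1, Gfi1, genes of the other tuft lists, up to 4 of each further list by mean CPM, and the 10 nearest in pattern. Members, lists and promoters shown were chosen with earlier results of these data known. No tables held identical values, and replicates differed beyond counting noise. A gene of the other tuft lists is not reported here, though the list counts include it.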

Additional observations from a re-analysis of the deposited data

How the results depend on the processing

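Of the members' log2 fold changes under other settings, 662 kept direction and call, 44 gained a call, 25 lost one and 41 changed sign. Members called in ileum KO against WT numbered 6 with DESeq2, beside 511 of 23114 genes called in either direction. Leaving out 1 KO or WT library leaves 1 in its group. In ileum KO against WT and in several other comparisons the calls of members then moved with the library left out, as did those over all genes. With 1 GFP library left out, 0 members were called in colon GFP against WT, beside 5869 of 15154 to 6995 of 15179 genes. Between the sorted cells of colon and ileum 0 to 1 were called, beside 2416 of 15179 to 3961 of 15228 genes. Without WT 2 of both tissues, which leaves 1 WT library in each tissue, calls moved as well, and signs turned as given below. With no filter on low counts 3 were called in colon GFP against WT, 7 in ileum GFP against WT, 2 in colon GFP against KO and 3 between the sorted cells. Over all 28699 genes, 7256, 8388, 7807 and 3861 were called in these comparisons. Colon GFP against WT gave 2 with DESeq2, 2 with the groups compared alone and 2 with the colon libraries alone. Over all genes these settings called 7074 of 28699, 6617 of 14088 and 7391 of 14432. Colon GFP against KO gave 1 with the groups compared alone and 1 with the colon libraries alone, beside 7225 of 14017 and 7822 of 14432 genes. Ileum GFP against KO gave 1 with the ileum libraries alone, beside 7525 of 14189 genes. The cause was not tested, except that leaving out libraries changes which genes pass the filter.

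The replicate number as a block called 1 member in colon WT against ileum WT (Pou2f3, edgeR adjusted p = 0.0368), beside 2748 of 14415 genes. It called 0 in colon GFP against WT (Ptgs1, edgeR adjusted p = 0.0868), beside 6823 of 15274 genes. It turned the sign of Alox5 in colon KO against WT (0.01) and of Trpm5 in ileum GFP against KO (−0.12). The labels do not say whether libraries of the same number share an animal, and no pairing was assumed. Their deviations over 14415 genes correlated by −0.008 (KO and WT, colon), 0.081 (KO and WT, ileum), 0.312 (KO, both tissues) and 0.267 (WT, both tissues).

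Signs also turned without WT 2 of both tissues for Avil (0.31) and Alox5 (0.76) in colon KO against WT, for Alox5 (0.20), Dclk1 (0.54) and Ptgs1 (0.12) in colon WT against ileum WT, for Alox5 (0.16) and Dclk1 (0.10) in colon GFP against WT, and for Pou2f3 (1.49) and Ptgs1 (0.81) in ileum GFP against WT. In ileum GFP against KO, values near 0 turned for Trpm5 with no filter (−0.001) and for Alox5 with DESeq2 (0.02) and with the ileum libraries alone (0.01). Over fits that leave out 1 library, log2 fold changes that turned ran as follows. In colon KO against WT they ran from −0.77 to 0.31 for Avil, −0.89 to 0.76 for Alox5 and −2.14 to 0.99 for Gnat3, and the difference between tissues ran from −0.37 to 3.08 for Pou2f3. In colon WT against ileum WT the ranges were −2.94 to 2.54 for Gnat3, −2.94 to 0.63 for Trpm5, −3.45 to 0.54 for Avil, −3.47 to 1.27 for Alox5, −2.95 to 1.26 for Dclk1 and −1.47 to 0.52 for Ptgs1. In GFP against WT they were −0.28 to 1.09 for Pou2f3, −1.95 to 0.14 for Alox5 and −1.09 to 0.08 for Dclk1 in colon, and −1.93 to 1.5 for Pou2f3 and −1.25 to 0.82 for Ptgs1 in ileum. In GFP against KO they were −0.59 to 0.39 for Trpm5 in colon, and −0.03 to 0.21 for Trpm5, −0.41 to 0.39 for Alox5 and −2.13 to 3.66 for Gnat3 in ileum. Between the sorted cells Gnat3 ran from −0.26 to 3.99. Counts for Gnat3, Il25 and Gfi1b were too low for firm statements. The counts of other tuft genes under these settings were added after seeing the data.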

Other observations

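Pla2g2a, a secreted phospholipase of Paneth cells, varied more within the crypt groups than between them. In colon it had 213 CPM in KO 1 and 4.21 CPM in KO 2, against 24.7 CPM in WT 1 and 475 CPM in WT 2. In ileum it had 462 CPM in KO 1 and 7.59 CPM in KO 2, against 64.3 CPM in WT 1 and 7420 CPM in WT 2. Among WT crypts of both tissues the library with the higher tuft levels had the higher Pla2g2a level. Among KO crypts the order was the reverse in both tissues. Pla2g2a was higher in KO 1, where the 9 tuft genes summed to less than in KO 2 (15.6 against 23.7 CPM in colon, 6.25 against 7.14 CPM in ileum). In the 6 sorted libraries Pla2g2a had 10.6 to 110 CPM. The labels name no strain, and whether the libraries of a group share a genetic background was not tested.

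Mcpt1, a mucosal mast cell protease, had 18.8 and 12.5 CPM in ileum KO crypts, against 7.54 CPM in WT 1 and 4.15 CPM in WT 2 of ileum. Sprr2a3, a small proline-rich epithelial protein, had 35.7 and 23.1 CPM in ileum KO crypts, against 38.2 CPM in WT 1 and 216 CPM in WT 2 of ileum.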
